A study of Homo sapiens with 8 samples.

Results

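Ribosome biogenesis factors are the proteins that make ribosomal RNA (rRNA), cut and modify it, and assemble it into ribosomal subunits. The genes described here are 41 named symbols, of which 40 were found among the 80311 rows of the deposited count table; BOP1 was not analysed here. They were ordered by role into 6 genes of RNA polymerase I transcription, 8 of the small nucleolar ribonucleoproteins (snoRNPs), 10 of the small subunit, 12 of the large subunit and 4 abundant nucleolar proteins with several roles. All 40 passed the filter on low counts, and they lie on 17 chromosomes.

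RNA polymerase I transcribes a long precursor rRNA in the nucleolus. Guide RNAs in snoRNPs direct its methylation and pseudouridylation, and large assemblies of proteins then fold, cut and export the subunits. Many of these genes are known targets of the transcription factor MYC, which binds the E-box CACGTG with its partner MAX, and their output is coupled to cell growth.

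Total RNA was sequenced from 2 derivatives of U2OS, a human osteosarcoma line. The tested siRNA, siMePCE, is directed against MEPCE, the methyltransferase that caps the noncoding RNA 7SK, and was set against a control siRNA, siNC. The 8 libraries formed 4 groups of 2: AsiSI cells with siMePCE, AsiSI cells with siNC, Flp-In cells (U2OS-Flp-In-TREx) with siMePCE, and Flp-In cells with siNC. Every group was transfected at 0 and 48 h and lysed at 96 h. AsiSI cells carry the restriction enzyme AsiSI fused to a receptor domain, and both AsiSI groups received 300 nM 4-hydroxytamoxifen (4-OHT) from 92 h, for 4 h, so that the enzyme cuts its sites. For Flp-In cells no label mentions 4-OHT; they were kept in Zeocin and Blasticidin, whereas AsiSI cells were kept in G418. The line, its drugs, 4-OHT and cutting therefore cannot be told apart in any comparison of AsiSI with Flp-In cells. No label says whether replicates were separate cultures, so p-values measure the spread between these libraries.

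Library totals ranged from 41431776 to 53695626 counts. MEPCE had 3.65 and 2.30 counts per 1000000 (CPM) in AsiSI siMePCE libraries, against 29.3 and 29.3 CPM in AsiSI siNC libraries, and 5.35 and 4.84 CPM in Flp-In siMePCE libraries, against 39.9 and 40.1 CPM in Flp-In siNC libraries. It was thus 9.85-fold lower in AsiSI and 7.85-fold lower in Flp-In cells (edgeR quasi-likelihood adjusted p = 6.36e-12 and 1.11e-11), although a row on the same strand overlaps it and holds 1.08 times its counts. Mitochondrial rows took 9.63% and 10.6% of counts in AsiSI siMePCE, against 5.89% and 5.91% in AsiSI siNC, and 8.66% and 8.24% in Flp-In siMePCE, against 5.23% and 5.52% in Flp-In siNC. Summed mesenchymal markers were 1685 to 1802 CPM in AsiSI siMePCE, 2205 to 2425 in AsiSI siNC, 1046 to 1200 in Flp-In siMePCE and 1605 to 1655 in Flp-In siNC, with 7 of 8 above 1 CPM in the mean over 8 libraries and COL1A2 below it. Summed epithelial markers were 20.3 to 26.99 CPM in AsiSI siMePCE, 9.19 to 11.3 in AsiSI siNC, 35.1 to 39.4 in Flp-In siMePCE and 21.4 to 23.8 in Flp-In siNC (3 of 6 above 1 CPM in the mean over 8 libraries; KRT5, KRT14 and ESRP1 below it). The single markers did not all follow these sums. With siMePCE, 5 of 8 mesenchymal markers had a log2 fold change below 0 in AsiSI and 7 of 8 in Flp-In. In AsiSI, mean VIM was 875 against 1204 CPM, but CDH2 was 156 against 120 CPM. Of 5 epithelial markers tested, 1 was below 0 in AsiSI and 2 in Flp-In. Mean CLDN4 was 25.3 against 12.6 CPM in Flp-In, but EPCAM was 4.49 against 6.17 CPM. None of these markers was at 0 in all 8 libraries, and the part of these shifts in the results below was not tested. In bulk libraries, fewer cells of a kind and less RNA per cell cannot be told apart.

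The promoters of the factors were searched for CACGTG, the letters of the E-box that MYC binds. Of 40 genes, 36 had a promoter in RefSeq (build GRCh38.p14; 250 bases before to 50 after the start site, the start site being base 1), and 11 of these 36 (30.6%) held the motif, which reads the same on both strands. It occurred in 35 of 121 promoters of other ribosome biogenesis genes (28.9%), 1229 of 13492 of the protein-coding genes tested (9.11%) and 2030 of all 27305 promoters (7.43%). In 4 genes with the motif the siMePCE effect was called as different between lines (WDR43, UTP4, UTP20, NOC3L). Of these calls, only that of WDR43 held under every setting tried. The stretches below show the motif, in capitals, in these 4, in 1 gene called as rising in both lines (FBL) and in 1 called as falling in both (MYBBP1A). They lie at chr2:28894658-28894687 (plus strand), chr16:69132621-69132650 (plus), chr12:101280083-101280112 (plus), chr10:94362903-94362932 (minus), chr19:39846356-39846385 (minus) and chr17:4555340-4555369 (minus), in the order printed, each 5′ to 3′ on the gene's strand.
WDR43: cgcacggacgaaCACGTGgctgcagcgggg
UTP4: agagcgcgcgcgCACGTGgggccggggcgg
UTP20: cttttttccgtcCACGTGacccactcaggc
NOC3L: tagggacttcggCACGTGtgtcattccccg
FBL: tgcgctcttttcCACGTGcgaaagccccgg
MYBBP1A: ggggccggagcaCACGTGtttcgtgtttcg
In these 6 the motif began 16 bases (UTP4) or 10 bases (UTP20) before the start site, or at base 4 (WDR43), 7 (FBL), 20 (NOC3L) or 28 (MYBBP1A). A match is a description of the letters and not of binding. The other 5 genes with it were NOP10, with 2 matches, NOP14, RRP9, NOP2 and PES1.

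In AsiSI cells, siMePCE lowered more of the factors than it raised, and in Flp-In cells it raised more than it lowered. By edgeR's quasi-likelihood test with Benjamini-Hochberg adjustment over 43321 rows, 20 of 40 fell in AsiSI cells (50%, against 21.3% of all rows and 35% of protein-coding rows) and 5 rose (12.5%, against 16.8% and 16.9%). In Flp-In cells 7 fell (17.5%, against 22.7% of all rows and 34.2% of coding rows) and 16 rose (40%, against 18.1% and 20.4%). The median log2 fold change of the 40 was -0.20 in AsiSI, against 0.04 over all rows and -0.14 over coding rows, and 0.11 in Flp-In, against 0.03 and -0.10. With only rows of a mean of at least 1 CPM, the medians of the 40 were -0.07 in AsiSI and 0.19 in Flp-In, against 0.03 and 0.0002 over all rows kept. In that setting 11 rose in AsiSI. Over all rows and in either direction it called 14929 of 26438 in AsiSI, against 16496 of 43321 in the main fit. Without Flp-In siMePCE replicate 2 the Flp-In median was 0.18. The 20 falls in AsiSI were 19 or 20 under each removal of 1 library, but the 5 rises became 2 without AsiSI siMePCE replicate 1 or without AsiSI siNC replicate 1, and 3 without AsiSI siMePCE replicate 2. Together the 40 genes summed to 3198 and 3026 CPM in AsiSI siMePCE, against 3479 and 3578 CPM in AsiSI siNC. They summed to 3914 and 3647 CPM in Flp-In siMePCE, against 3243 and 3265 CPM in Flp-In siNC. The siMePCE sum was below both siNC libraries in AsiSI and above both in Flp-In.

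**Figure D1:**
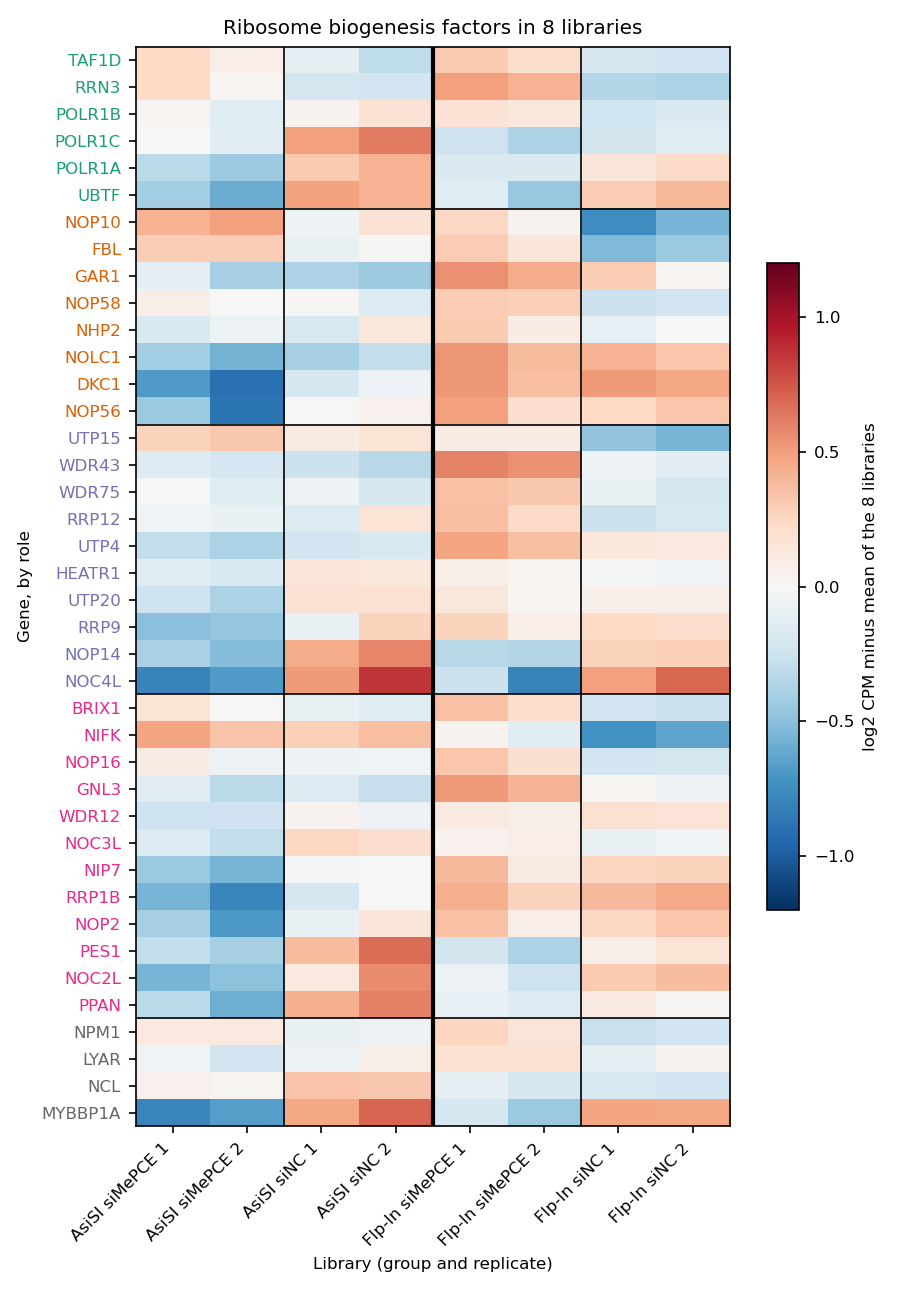
Each row is 1 of 40 genes and each column 1 library; colour gives log2 CPM minus the gene's mean over the 8 libraries (red higher, blue lower), and blocks from top to bottom are RNA polymerase I transcription, snoRNP proteins, small subunit, large subunit and nucleolar proteins with several roles. AsiSI siMePCE held the lowest group mean of 23 genes and Flp-In siMePCE the highest of 17, an order that was not taken for all rows.

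The siMePCE effect was lower in AsiSI than in Flp-In cells for all 40 factors, with differences (AsiSI minus Flp-In, log2) from -0.79 for PPAN to -0.11 for TAF1D and a median of -0.43, against -0.02 over all rows and -0.06 over coding rows. Of all rows 51.3% had a difference below 0, and of coding rows 56.0%. The difference was called in 13 of 40 (32.5%, against 1.66% of all rows and 3.11% of coding rows called in that direction), namely WDR43, NOC3L, NOP56, DKC1, UTP20, RRP12, NIFK, POLR1B, POLR1C, HEATR1, PPAN, UTP4 and NOP58. It was called the other way in 0 of 40 by edgeR, against 2.51% of all rows and 3.1% of coding rows, and in 0 by DESeq2. At an unadjusted edgeR p under 0.05, 33 of 40 were lower and 0 higher. Of 43321 rows 3735 were lower and 3951 higher at that limit, and of 17341 coding rows 2417 and 1754. DESeq2 called 24 of 40 lower. Over all rows and in either direction it called 2635, against 1808 by edgeR. The call depended on single libraries. Fewer of the 40 were called without either Flp-In siNC library, Flp-In siMePCE replicate 1, AsiSI siMePCE replicate 2 or AsiSI siNC replicate 2. Over all rows, too, each removal of 1 library gave fewer calls of the difference than the fit of all 8. The median difference of the 40 ranged from -0.50 without Flp-In siMePCE replicate 2 to -0.37 without Flp-In siMePCE replicate 1. Of the 8 removals of 1 library, the call was lost in 8 for HEATR1 and UTP4, which also lost it with no filter, in 7 for NOP58, in 6 for POLR1B and PPAN, in 5 for NIFK, POLR1C and DKC1, in 4 for RRP12 and UTP20, in 3 for NOP56 and in 1 for NOC3L. WDR43 was the 1 gene of the 13 whose call held under every setting tried. All 40 differences remained below 0 under each of these removals and every other setting tried, among the genes that each setting kept.

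No factor was called in opposite directions in the lines. The 7 that fell in both were NOC2L, POLR1A, NOP14, NOC4L, MYBBP1A, UBTF and PES1, and the 5 that rose in both were NPM1, TAF1D, NOP10, RRN3 and FBL. A fall was called in AsiSI alone for 13 (HEATR1, WDR12, NCL, RRP9, POLR1C, NOC3L, NOP2, UTP20, NIP7, PPAN, NOP56, RRP1B and DKC1), and a rise in Flp-In alone for 11 (WDR43, POLR1B, NIFK, WDR75, NOP58, GNL3, BRIX1, UTP15, NOP16, RRP12 and UTP4). LYAR, GAR1, NHP2 and NOLC1 passed in neither. Of the 13 genes called in the difference, 7 came from the AsiSI falls and 6 from the Flp-In rises, so the others of these 24 were not shown to differ between lines. The 2 siMePCE effects share no library, and across the 40 genes they had a Pearson r of 0.96 and a Spearman rho of 0.94, against 0.86 and 0.85 over 12108 coding rows with a mean of at least 5 CPM. Both correlations run over genes of the same libraries and have no p. The difference had an SD of 0.14 over the 40 genes, against 0.36 over those coding rows. The coding rows were not matched to the factors for level, and the part of counting noise in the SDs and correlations was not tested.

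**Figure D2:**
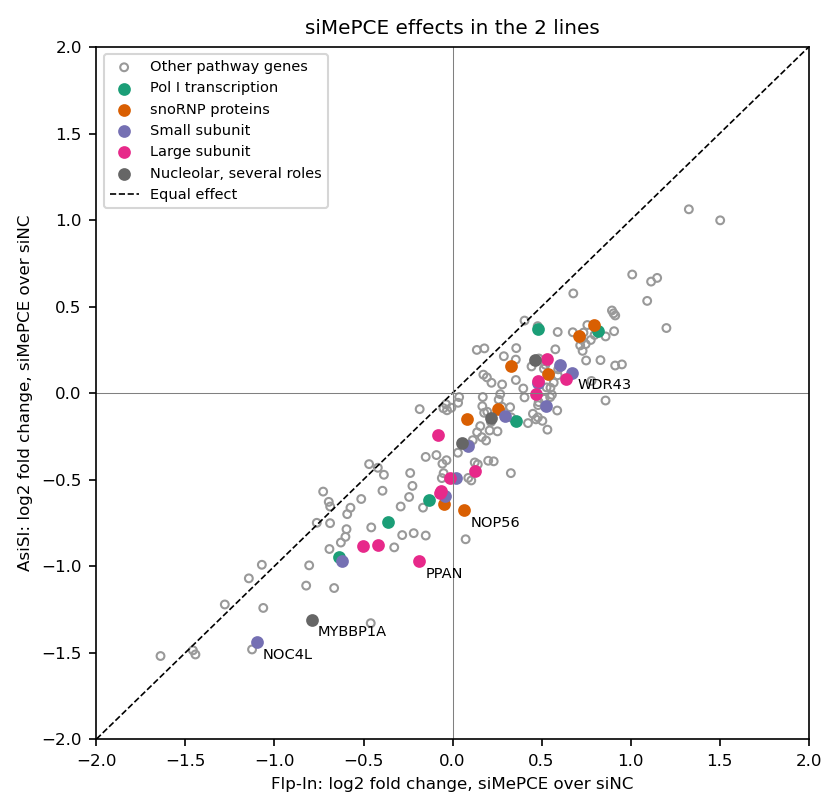
Each point is a gene, placed by its log2 fold change of siMePCE over siNC in Flp-In (x axis) and AsiSI cells (y axis); filled points are the 40 factors by role, open grey points other ribosome biogenesis genes, and the dashed line marks equal effects. All 40 filled points lie below the line, and 130 of the 143 open points do.

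Among the RNA polymerase I genes, siMePCE lowered 3 of 6 in AsiSI cells (50%, against 21.3% of all rows and 35% of coding rows). It raised 2 there (33.3%, against 16.8% and 16.9%). In Flp-In cells it lowered 2 (33.3%, against 22.7% and 34.2%) and raised 3 (50%, against 18.1% and 20.4%). UBTF, the upstream binding factor that keeps rRNA gene chromatin open, had 30.2 and 26.6 CPM in AsiSI siMePCE, against 56.0 and 53.5 CPM in AsiSI siNC, and 36.2 and 29.3 CPM in Flp-In siMePCE, against 49.4 and 52.7 CPM in Flp-In siNC. In both lines its siMePCE libraries lay below the siNC libraries, with log2 fold changes of -0.95 ± 0.11 (SE) in AsiSI and -0.64 ± 0.11 in Flp-In (edgeR adjusted p = 9.12e-07 and 9.73e-05). An antisense row holds 1.04 times the counts of UBTF and, counted without regard to strand, cannot be told apart from it.

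RRN3, the initiation factor that recruits the polymerase to the rRNA promoter, had 43.9 and 37.8 CPM in AsiSI siMePCE, against 32.1 and 31.7 CPM in AsiSI siNC, and 52.2 and 49.5 CPM in Flp-In siMePCE, against 29.2 and 28.6 CPM in Flp-In siNC. It was higher with siMePCE in every library of both lines, by 0.36 ± 0.10 in AsiSI and 0.82 ± 0.10 in Flp-In (edgeR adjusted p = 0.00908 and 2.16e-06), and its difference between lines, -0.46, was not called (adjusted p = 0.0846). Without AsiSI siMePCE replicate 1 the AsiSI adjusted p was 0.153. The opposite-strand gene PDXDC1 holds 2.60 times the counts of RRN3, and 3 RRN3 pseudogene rows together hold 0.134 times them. TAF1D, a subunit of the promoter selectivity factor, had 183 and 163 CPM in AsiSI siMePCE, against 143 and 125 CPM in AsiSI siNC, and 192 and 179 CPM in Flp-In siMePCE, against 134 and 132 CPM in Flp-In siNC. It too rose without overlap in both lines, by 0.37 ± 0.09 in AsiSI and 0.48 ± 0.09 in Flp-In (edgeR adjusted p = 0.00248 in AsiSI, 0.0603 without AsiSI siMePCE replicate 1, and 0.000186 in Flp-In). Nested small RNA rows made up 12.7% to 14.8% of its counts, and the opposite-strand gene CEP295 holds 0.513 times them.

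POLR1B, the second largest polymerase subunit, had 73.9 and 65.5 CPM in AsiSI siMePCE, against 74.5 and 81.4 CPM in AsiSI siNC, and 81.8 and 79.3 CPM in Flp-In siMePCE, against 61.5 and 64.3 CPM in Flp-In siNC. It rose in Flp-In cells (0.36 ± 0.09, edgeR adjusted p = 0.00402; 0.0710 without Flp-In siNC replicate 1) and had -0.16 ± 0.09 in AsiSI cells (adjusted p = 0.184). The difference of effects was -0.52 ± 0.13 (adjusted p = 0.0267). POLR1C, a subunit that polymerases I and III have in common, had 111 and 102 CPM in AsiSI siMePCE, against 156 and 171 CPM in AsiSI siNC, and 93.2 and 85.2 CPM in Flp-In siMePCE, against 95.1 and 100.4 CPM in Flp-In siNC. It fell in AsiSI cells (-0.62 ± 0.09, adjusted p = 1.06e-05) and had -0.13 ± 0.09 in Flp-In cells (adjusted p = 0.25), a difference of -0.48 ± 0.12 (adjusted p = 0.0304). AsiSI siNC stood above the other groups, and the opposite-strand gene XPO5 holds 0.740 times the counts of POLR1C. Without Flp-In siNC replicate 1, the library whose removal raised these p most, the differences had adjusted p = 0.164 for POLR1B and 0.176 for POLR1C. POLR1A, the largest subunit, fell in both lines, with log2 fold changes of -0.75 in AsiSI (edgeR adjusted p = 3.66e-07) and -0.36 in Flp-In (adjusted p = 0.00132).

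Among the snoRNP proteins, 2 of 8 fell in AsiSI cells (25%, against 21.3% of all rows and 35% of coding rows). Another 2 rose there (25%, against 16.8% and 16.9%). In Flp-In cells 3 rose (37.5%, against 18.1% and 20.4%) and 0 fell (against 22.7% and 34.2%). The share of falls in AsiSI was thus near that of all rows. NOP56, a core protein of the methylating box C/D snoRNPs, had 42.5 and 31.5 CPM in AsiSI siMePCE, against 58.1 and 60.2 CPM in AsiSI siNC, and 81.8 and 66.5 CPM in Flp-In siMePCE, against 68.6 and 72.9 CPM in Flp-In siNC. The AsiSI groups were apart and the Flp-In groups overlapped: the log2 fold change was -0.68 ± 0.12 in AsiSI and 0.07 ± 0.12 in Flp-In (edgeR adjusted p = 0.000156 and 0.688), a difference of -0.74 ± 0.17 (adjusted p = 0.0161). Both siMePCE groups of NOP56 were wide, and the difference was -0.54 (adjusted p = 0.0704) without AsiSI siMePCE replicate 2, -0.58 (adjusted p = 0.120) without Flp-In siMePCE replicate 1 and -0.69 (adjusted p = 0.0828) without Flp-In siNC replicate 1. Small RNA rows nested in NOP56 took 2.00% to 3.61% of its counts.

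NOP58, the paralogous partner of NOP56, had 124 and 119 CPM in AsiSI siMePCE, against 120 and 106 CPM in AsiSI siNC, and 146 and 145 CPM in Flp-In siMePCE, against 99.2 and 101 CPM in Flp-In siNC. It rose in Flp-In cells by 0.54 ± 0.09 (edgeR adjusted p = 3.52e-05), and its AsiSI groups overlapped (0.11 ± 0.09, adjusted p = 0.344). Its difference of -0.43 ± 0.12 was the closest of the 13 to the threshold (adjusted p = 0.0488), and the call was lost with DESeq2's size factors (adjusted p = 0.0510), with no filter (adjusted p = 0.0521), on subtracting the 4 small RNA rows nested in it and those in other factors (adjusted p = 0.0526), and in 7 of the 8 removals of 1 library, with a highest adjusted p of 0.220 without Flp-In siNC replicate 1. Of the 2 partners, NOP56 fell in AsiSI and NOP58 rose in Flp-In.

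DKC1, the pseudouridine synthase of the box H/ACA snoRNPs and of telomerase, had 38.9 and 33.5 CPM in AsiSI siMePCE, against 53.8 and 59.2 CPM in AsiSI siNC, and 89.3 and 79.7 CPM in Flp-In siMePCE, against 88.7 and 86.0 CPM in Flp-In siNC. All 4 AsiSI libraries lay below all 4 Flp-In libraries, and siMePCE lowered DKC1 further in AsiSI (-0.64 ± 0.10, edgeR adjusted p = 3.06e-05; Flp-In -0.05 ± 0.10, adjusted p = 0.726). The difference was -0.59 ± 0.14 (adjusted p = 0.0186; 0.114 without Flp-In siMePCE replicate 1). NOP10, a small H/ACA protein, was higher with siMePCE, with 54.8 and 57.9 CPM in AsiSI siMePCE, against 39.4 and 46.4 CPM in AsiSI siNC, and 48.7 and 42.3 CPM in Flp-In siMePCE, against 24.6 and 27.9 CPM in Flp-In siNC. It rose without overlap by 0.39 ± 0.11 in AsiSI (edgeR adjusted p = 0.00745; 0.0579 without AsiSI siMePCE replicate 2 and 0.135 without AsiSI siNC replicate 1) and by 0.80 ± 0.11 in Flp-In (adjusted p = 8.10e-06). Fibrillarin (FBL), the methyltransferase of the C/D snoRNPs, rose by 0.33 in AsiSI and 0.71 in Flp-In (edgeR adjusted p = 0.00953, or 0.0961 without AsiSI siNC replicate 1, and 5.78e-06). The 2 remaining H/ACA proteins, GAR1 and NHP2, and the snoRNP chaperone NOLC1 had log2 values between -0.15 and 0.33 and were called in neither line.

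**Figure D3:**
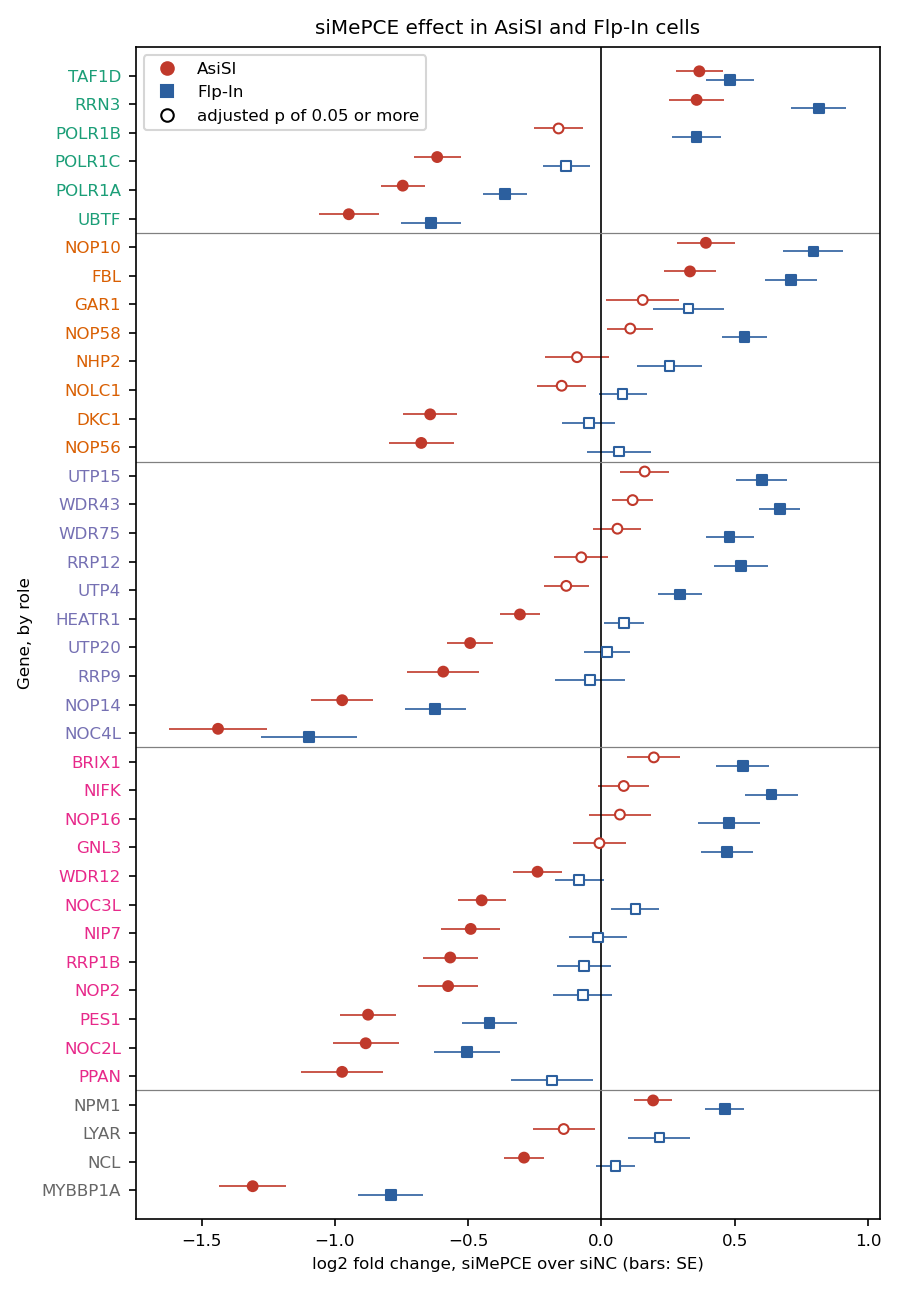
Log2 fold changes of siMePCE over siNC with their SE for the 40 factors, by role; red circles are AsiSI, blue squares Flp-In, and open symbols have an adjusted p of 0.05 or more. The red symbol lies left of the blue one for every gene, from NOC4L (-1.44 in AsiSI, -1.10 in Flp-In) to NOP10 (0.39 in AsiSI, 0.80 in Flp-In).

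Of the 10 small subunit factors, 5 fell in AsiSI cells (50%, against 21.3% of all rows and 35% of coding rows). In Flp-In cells 2 fell (20%, against 22.7% and 34.2%) and 5 rose (50%, against 18.1% and 20.4%). The difference was called lower in 5 (50%, against 1.66% and 3.11%). WDR43, a component of the early assembly on the precursor (hg19 chr2:29117533-29171085, plus strand), had 195 and 189.9 CPM in AsiSI siMePCE, against 182 and 173 CPM in AsiSI siNC, and 328 and 319 CPM in Flp-In siMePCE, against 208 and 199 CPM in Flp-In siNC. Flp-In siMePCE stood far above the other groups: the log2 fold change was 0.12 ± 0.08 in AsiSI and 0.67 ± 0.08 in Flp-In (edgeR adjusted p = 0.248 and 5.79e-07). The difference of -0.55 ± 0.11 had an adjusted p of 0.00509, and the highest on leaving out a library was 0.0384, without Flp-In siNC replicate 2.

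UTP4, of the same early assembly, had 95.7 and 89.8 CPM in AsiSI siMePCE, against 99.8 and 104 CPM in AsiSI siNC, and 163 and 151 CPM in Flp-In siMePCE, against 128 and 127 CPM in Flp-In siNC. RRP12, which takes part in export of the subunits, had 79.9 and 78.1 CPM in AsiSI siMePCE, against 73.6 and 92.9 CPM in AsiSI siNC, and 106 and 96.8 CPM in Flp-In siMePCE, against 69.0 and 72.1 CPM in Flp-In siNC. Both had Flp-In siMePCE as their highest group and rose in Flp-In, UTP4 by 0.30 ± 0.08 (edgeR adjusted p = 0.00715; up to 0.0994 without Flp-In siMePCE replicate 1 or either Flp-In siNC library) and RRP12 by 0.52 ± 0.10 (adjusted p = 0.000296). In AsiSI they had -0.13 and -0.08 (adjusted p = 0.23 and 0.596). Their differences were -0.43 ± 0.12 for UTP4 (adjusted p = 0.0433; lost in all 8 removals of 1 library, with 0.182 at most) and -0.60 ± 0.14 for RRP12 (adjusted p = 0.0196; 0.107 without Flp-In siNC replicate 1). The opposite-strand gene CHTF8 holds 0.516 times the counts of UTP4.

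UTP20, a scaffold that joins the assembly later, had 79.2 and 72.6 CPM in AsiSI siMePCE, against 107 and 107 CPM in AsiSI siNC, and 104 and 95.7 CPM in Flp-In siMePCE, against 98.4 and 98.1 CPM in Flp-In siNC. HEATR1, a large early component also needed for polymerase I transcription, had 211 and 205 CPM in AsiSI siMePCE, against 259 and 256 CPM in AsiSI siNC, and 244 and 238 CPM in Flp-In siMePCE, against 228 and 226 CPM in Flp-In siNC. For both, AsiSI siMePCE was the lowest group and AsiSI siNC the highest. UTP20 fell in AsiSI (log2 fold change -0.49, edgeR adjusted p = 0.000111), as did HEATR1 (-0.31, adjusted p = 0.00265), against 0.02 for UTP20 and 0.09 for HEATR1 in Flp-In (adjusted p = 0.869 and 0.381). The differences were -0.51 ± 0.12 (adjusted p = 0.0191; 0.104 without Flp-In siMePCE replicate 1) and -0.39 ± 0.11 (adjusted p = 0.0391; lost in all 8 removals of 1 library, with 0.161 at most).

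NOC4L, which acts with NOP14 on the small subunit precursor, fell most of all 40 factors in both lines. It had 5.001 and 5.45 CPM in AsiSI siMePCE, against 12.5 and 15.9 CPM in AsiSI siNC, and 7.30 and 5.005 CPM in Flp-In siMePCE, against 12.3 and 14.1 CPM in Flp-In siNC. The groups did not overlap, and the log2 fold change was -1.44 ± 0.18 in AsiSI and -1.10 ± 0.18 in Flp-In (edgeR adjusted p = 2.12e-06 and 4.65e-05; difference -0.34, adjusted p = 0.535). NOP14 fell by 0.97 in AsiSI and by 0.62 in Flp-In (adjusted p = 9.39e-07 and 0.000182), with an antisense row of 1.12 times its counts. RRP9, a protein of the snoRNP that guides early cleavage, fell in AsiSI by 0.59 (adjusted p = 0.00132; Flp-In -0.04, adjusted p = 0.814), and UTP15 and WDR75, of the early assembly, rose in Flp-In by 0.60 and 0.48 (adjusted p = 2.94e-05 and 0.000208; AsiSI 0.16 and 0.06, adjusted p = 0.183 and 0.641).

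Of the 12 large subunit factors, 8 fell in AsiSI cells (66.7%, against 21.3% of all rows and 35% of coding rows). In Flp-In cells 2 fell (16.7%, against 22.7% and 34.2%) and 4 rose (33.3%, against 18.1% and 20.4%). The difference was called lower in 3 (25%, against 1.66% and 3.11%). NIFK, a nucleolar protein that binds the proliferation marker Ki-67, had 79.7 and 72.7 CPM in AsiSI siMePCE, against 69.8 and 74.0 CPM in AsiSI siNC, and 59.2 and 52.3 CPM in Flp-In siMePCE, against 34.7 and 37.0 CPM in Flp-In siNC. Here all AsiSI libraries lay above all Flp-In libraries. NIFK rose in Flp-In by 0.64 ± 0.10 (edgeR adjusted p = 2.42e-05) and had 0.08 ± 0.10 in AsiSI (adjusted p = 0.532), a difference of -0.55 ± 0.14 (adjusted p = 0.0241; 0.156 without Flp-In siNC replicate 1). Its antisense row NIFK-AS1 holds 0.896 times its counts.

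NOC3L, which works with NOC2L in early large subunit assembly, had 61.1 and 55.6 CPM in AsiSI siMePCE, against 81.0 and 78.3 CPM in AsiSI siNC, and 70.7 and 72.2 CPM in Flp-In siMePCE, against 64.2 and 66.5 CPM in Flp-In siNC. The siMePCE libraries were below siNC in AsiSI and above siNC in Flp-In, with -0.45 ± 0.09 and 0.13 ± 0.09 (edgeR adjusted p = 0.000424 and 0.271). The difference was -0.58 ± 0.13 (adjusted p = 0.0116), and it lost its call on leaving out 1 library only without Flp-In siNC replicate 1 (adjusted p = 0.0952). No row overlaps NOC3L. NOC2L had 25.6 and 26.6 CPM in AsiSI siMePCE, against 40.7 and 55.5 CPM in AsiSI siNC, and 35.6 and 31.6 CPM in Flp-In siMePCE, against 46.7 and 48.6 CPM in Flp-In siNC. It fell without overlap in both lines, by 0.88 in AsiSI and by 0.50 in Flp-In (adjusted p = 8.07e-06 and 0.00243).

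PPAN, a homologue of the yeast assembly factor Ssf1, had 7.25 and 6.06 CPM in AsiSI siMePCE, against 12.2 and 13.9 CPM in AsiSI siNC, and 8.51 and 8.19 CPM in Flp-In siMePCE, against 9.79 and 9.21 CPM in Flp-In siNC. Its difference, -0.79 ± 0.22, was the most negative of the 40 (edgeR adjusted p = 0.0426; 0.181 without Flp-In siNC replicate 2), with -0.97 ± 0.15 in AsiSI (adjusted p = 3.24e-05) and -0.19 ± 0.15 in Flp-In (adjusted p = 0.35). The readthrough row PPAN-P2RY11, on the same strand, holds 1.28 times the counts of PPAN, so the 2 cannot be told apart. PES1, of the complex that PES1 and WDR12 form with BOP1, fell in both lines, by 0.88 in AsiSI and by 0.42 in Flp-In (adjusted p = 9.03e-07 and 0.00264). WDR12 fell in AsiSI by 0.24 (adjusted p = 0.0461), a call lost in 10 of 16 settings: in 5 removals of 1 library, with an adjusted p of up to 0.221, and with DESeq2, its size factors, no filter, a mean of at least 1 CPM or the 4 AsiSI libraries alone. NOP2, an rRNA methyltransferase, NIP7 and RRP1B fell in AsiSI by 0.49 to 0.58 and had -0.07 to -0.01 in Flp-In. BRIX1, NOP16 and GNL3, a GTP-binding protein of the nucleolus also called nucleostemin, rose in Flp-In by 0.47 to 0.53 and had -0.01 to 0.20 in AsiSI. Opposite-strand genes hold 1.05 times the counts of BRIX1 (RAD1), 2.79 times those of NOP16 (ARL10) and 1.99 times those of GNL3 (PBRM1). For NIP7 (COG8) the ratio was 1.58 and for WDR12 (NBEAL1) 1.52. A same-strand row holds 8.63 times the counts of NOP2. These changes may therefore include reads of a neighbour.

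Of the 4 nucleolar proteins with several roles, 2 fell in AsiSI cells (50%, against 21.3% of all rows and 35% of coding rows). In AsiSI 1 rose (25%, against 16.8% and 16.9%). In Flp-In cells 1 fell (25%, against 22.7% and 34.2%) and 1 rose (25%, against 18.1% and 20.4%). NPM1 (nucleophosmin), a chaperone of the nucleolus, had 462 and 460.5 CPM in AsiSI siMePCE, against 403 and 404 CPM in AsiSI siNC, and 508 and 474 CPM in Flp-In siMePCE, against 352 and 361 CPM in Flp-In siNC. It rose without overlap in both lines, by 0.19 ± 0.07 in AsiSI (edgeR adjusted p = 0.0383) and 0.46 ± 0.07 in Flp-In (adjusted p = 2.63e-05). The AsiSI call of NPM1 was lost in 6 of 8 removals of 1 library, with an adjusted p of up to 0.148, and 49 NPM1 pseudogene rows together hold 0.0426 times its counts. MYBBP1A, a nucleolar MYB-binding protein, had 13.1 and 14.3 CPM in AsiSI siMePCE, against 31.3 and 36.8 CPM in AsiSI siNC, and 19.6 and 16.7 CPM in Flp-In siMePCE, against 31.6 and 31.3 CPM in Flp-In siNC. It fell by 1.31 in AsiSI and by 0.79 in Flp-In (adjusted p = 4.40e-08 and 2.46e-05; difference -0.52, adjusted p = 0.102). NCL (nucleolin) fell in AsiSI by 0.29 (adjusted p = 0.0037; Flp-In 0.05, adjusted p = 0.599), and LYAR, which takes part in rRNA processing, had -0.14 in AsiSI and 0.22 in Flp-In and passed in neither.

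AsiSI cells were also set against Flp-In cells under each siRNA, in comparisons that share libraries with those above. Under siMePCE, 23 of 40 were lower in AsiSI (57.5%, against 15.9% of all rows and 27% of coding rows) and 4 were higher (10%, against 15.6% and 16.5%). The median was -0.32, against -0.008 over all rows and -0.10 over coding rows. Under siNC, 5 were lower in AsiSI (12.5%, against 15.1% and 23.3%) and 10 were higher (25%, against 14.4% and 17.7%). The median was 0.12, against 0.008 and -0.04. The 23 became 13 without Flp-In siMePCE replicate 1 and 15 without AsiSI siMePCE replicate 2. The 4 became 1 without Flp-In siMePCE replicate 2 or AsiSI siMePCE replicate 1 and 2 without AsiSI siMePCE replicate 2, and the 5 became 3 without Flp-In siNC replicate 1.

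Some factors differed between the lines whichever siRNA was given. DKC1 was lower in AsiSI under siMePCE (-1.22, edgeR adjusted p = 7.82e-09) and under siNC (-0.63, adjusted p = 4.78e-05). So were NOLC1 (-0.95 under siMePCE, adjusted p = 7.61e-08, and -0.72 under siNC, adjusted p = 3.22e-06) and RRP1B (-1.02 under siMePCE, adjusted p = 1.56e-07, and -0.52 under siNC, adjusted p = 0.000484). NIFK was higher in AsiSI under siMePCE (0.45, adjusted p = 0.0011) and under siNC (1.00, adjusted p = 1.02e-07). Others were called under siMePCE and not under siNC. NOP56 was lower in AsiSI under siMePCE (-1.002, edgeR adjusted p = 1.97e-06), as was WDR43 (-0.75, adjusted p = 1.85e-07). Under siNC NOP56 had -0.26 and WDR43 -0.20 (adjusted p = 0.12 and 0.0614). Their AsiSI libraries lay below their Flp-In libraries under siNC too. UTP15 was called higher in AsiSI under siNC (0.65, edgeR adjusted p = 1.94e-05) and had 0.21 under siMePCE (adjusted p = 0.1). Its AsiSI libraries lay above its Flp-In libraries under both siRNAs, and its difference of siMePCE effects was not called. The snoRNP proteins had the lowest median of the 5 roles under siMePCE (-0.54), and their median under siNC was -0.12. Under siMePCE 6 of 8 were called lower (75%, against 15.9% of all rows and 27% of coding rows).

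**Figure D4:**
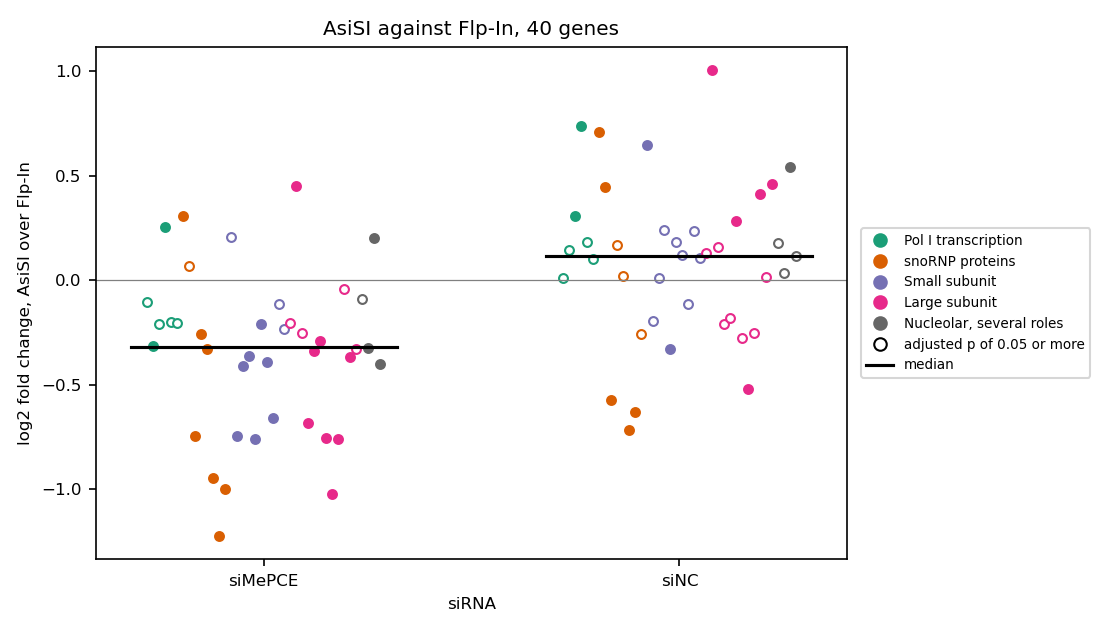
Log2 fold changes of AsiSI over Flp-In for the 40 factors under siMePCE (left) and siNC (right); filled points passed an adjusted p of 0.05, colours give the role, and black lines mark the medians of -0.32 and 0.12. Under siMePCE 34 of 40 points lie below 0 (85%, against 50.5% of all rows and 57.9% of coding rows).

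The levels can also be ordered over the 4 groups. The lowest group mean was in AsiSI siMePCE for 23 factors, in Flp-In siNC for 14, in AsiSI siNC for 2 (GAR1 and WDR43) and in Flp-In siMePCE for 1 (POLR1C). The highest was in Flp-In siMePCE for 17, in AsiSI siNC for 13, in Flp-In siNC for 6 and in AsiSI siMePCE for 4 (FBL, NIFK, NOP10 and UTP15). This order was not taken for all rows. With siMePCE in AsiSI, 58.8% of coding rows had a log2 fold change below 0, against 67.5% of the 40. For AsiSI against Flp-In under siMePCE it was 57.9% of coding rows, against 85% of the 40. For 9 of 40 in AsiSI and 9 of 40 in Flp-In the siMePCE and siNC libraries overlapped. In AsiSI 23 were lower and 8 higher with no overlap, where 33.3% and 33.5% of all rows were. In Flp-In 10 were lower and 21 higher with no overlap, where 36.6% and 36.3% of all rows were.

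The other ribosome biogenesis genes, 143 in 5 lists, mostly had a lower siMePCE effect in AsiSI than in Flp-In cells: 130 differences were below 0, with a median of -0.36, and 42 were called (29.4%, against 1.66% of all rows and 3.11% of coding rows). In AsiSI 53 fell (37.1%, against 21.3% and 35%) and 27 rose (18.9%, against 16.8% and 16.9%), shares near those of coding rows. In Flp-In 31 fell (21.7%, against 22.7% and 34.2%) and 66 rose (46.2%, against 18.1% and 20.4%). By list, the difference was called lower in 3 of 15 genes of polymerase I transcription (median -0.29), 2 of 10 snoRNP genes (-0.25) and 21 of 52 small subunit genes (-0.42). It was called lower in 14 of 49 large subunit genes (-0.41) and in 2 of 17 genes of the exosome and other rRNA processing (-0.24). TCOF1, which supports polymerase I transcription and is mutated in Treacher Collins syndrome, had 42.3 and 34.9 CPM in AsiSI siMePCE, against 91.7 and 102 CPM in AsiSI siNC, and 72.0 and 62.4 CPM in Flp-In siMePCE, against 89.5 and 95.4 CPM in Flp-In siNC. It fell in both lines and further in AsiSI (difference -0.87 ± 0.15, edgeR adjusted p = 0.00156). NAT10, the rRNA acetyltransferase, had a difference of -0.92 (adjusted p = 0.000505), with -0.85 in AsiSI and 0.07 in Flp-In. BYSL, a small subunit factor, had -0.90 (adjusted p = 0.0024), with -0.04 in AsiSI and 0.86 in Flp-In. The snoRNP assembly factors NUFIP1 and ZNHIT6 had -0.79 and -0.46 (adjusted p = 0.00935 and 0.0362), the large subunit factors RRP15 and RBM28 -0.75 and -0.74 (adjusted p = 0.00215 and 0.00406), the polymerase I subunit POLR1E -0.53 (adjusted p = 0.0234), and EXOSC7 and ERI1, which act in RNA trimming, -0.62 and -0.52 (adjusted p = 0.0241 and 0.027).

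MYC had 138 and 134 CPM in AsiSI siMePCE, against 172 and 189 CPM in AsiSI siNC, and 224 and 205 CPM in Flp-In siMePCE, against 95.7 and 97.9 CPM in Flp-In siNC. It fell in AsiSI (-0.41, edgeR adjusted p = 0.000483) and rose in Flp-In (1.15, adjusted p = 1.16e-09), a difference of -1.56 ± 0.12 (adjusted p = 4.27e-07). Whether MYC had a part in the factors' difference was not tested. The 11 factors with CACGTG in the promoter had a median difference of -0.50 (range -0.58 to -0.35) and the 25 with a promoter and no match -0.39 (range -0.79 to -0.11). The ranges overlap. The motif was present in 4 of the 11 promoters of genes called in the difference (36.4%) and in 7 of 25 of the other factors (28%).

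The siMePCE effect was lower for GC-rich transcripts in both lines. Here GC content is that of the longest coding transcript, without introns. Reads were counted over whole genes with introns, so it does not describe all of the counted sequence. Over the 40 longest coding transcripts the GC content was 37.7% to 64.8%, with a median of 47.2%. The Spearman rho of this GC content with the log2 fold change was -0.57 in AsiSI and -0.55 in Flp-In, against -0.39 and -0.35 over 11914 coding genes. With the difference between lines it was -0.09, against -0.01. The 7 factors that fell in both lines had a median GC content of 58.2% (51.3% to 64.8%), and the 5 that rose in both 43.3% (41.5% to 57.9%). All genes share libraries and their depth, and the part of base composition in the effects was not tested.

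**Figure D5:**
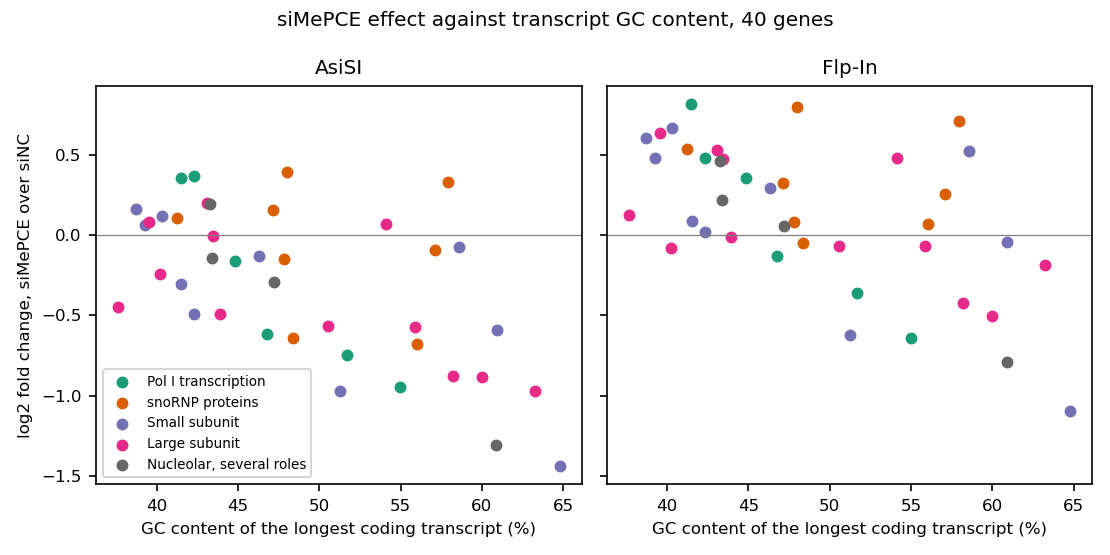
GC content of the longest coding transcript in percent (x axis) against the log2 fold change of siMePCE over siNC (y axis) for the 40 factors, in AsiSI (left) and Flp-In (right), coloured by role. GC-rich transcripts sit lower in both panels, with Spearman rho of -0.57 in AsiSI and -0.55 in Flp-In.

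Since reads were counted over whole genes and, from the values, went to each row they overlap, some factors carry reads of a neighbour. In 15 of 40 an overlapping row holds at least 0.5 times the counts of the factor, and NOP2 is overlapped by a same-strand row of 8.63 times its counts. Among the 25 factors without such a row, 13 fell (52%, against 21.3% of all rows) and 3 rose (12%, against 16.8%) in AsiSI. In Flp-In 5 fell (20%, against 22.7%) and 9 rose (36%, against 18.1%). The difference was called lower in 9 (36%, against 1.66%), with a median of -0.43 and 25 of 25 below 0. Among the 18 without a row of 0.1 times their counts, 6 were called lower in the difference (33.3%, against 1.66%), with a median of -0.41 and 18 of 18 below 0. Subtracting the small RNA rows nested in 12 factors left all 40 differences below 0 and 12 of them called, without NOP58.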

How the data were processed

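Ribosomal RNA was removed and a directional kit used for the libraries, per the labels' protocols. STAR, featureCounts, SAMtools, Trim Galore and FastQC were used with the build hg19, per the submitters' processing notes; versions and settings are not given in the sources used here. The authors deposited raw counts for 80311 gene rows in 8 columns, 1 per library, with hg19 coordinates, and 0 other columns of per-sample values were left aside. From the values, each gene was counted over its whole interval with introns, and a nested row never exceeded its host in 3529 of 3529 same-strand and 6890 of 6890 opposite-strand pairs with a mean of at least 20 counts.

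Rows were kept with edgeR 4.0.16 (filterByExpr by group; R 4.3.3), which left 43321, of them 17341 protein-coding by GENCODE 29. The quasi-likelihood test used TMM scaling and 1 mean for each of the 4 groups. P-values were adjusted by Benjamini-Hochberg over all rows for each of 5 comparisons, with a call at an adjusted p under 0.05. CPM are counts per 1000000 of the TMM-scaled library, not per length, and an SE is the log2 fold change over the root of the F value. Replicates differed by more than sampling noise (chi-square per degree of freedom 4.52 to 11.3). The genes and lists were chosen with earlier results of these data known. Values per library are given for every gene called in the difference and, in each role, for those with the largest rise and fall called in each line; outside the 40, the 2 genes with the smallest adjusted p in each list are named, and MYC and MEPCE. Alternatives were DESeq2 1.42.0, its size factors, other filters, a replicate block, the 4 libraries compared, each library left out, rows removed or subtracted, and genes with overlapping rows left out. A list of blood cell markers is not reported here.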

Additional observations from a re-analysis of the deposited data

Results flagged for a closer look

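For 13 of the 40 factors the interaction of siRNA and line was called, meaning that the log2 effect in AsiSI minus that in Flp-In was below 0 by edgeR's quasi-likelihood test, adjusted over all rows. Those called as rising in Flp-In and not called in AsiSI were WDR43 (-0.55, adjusted p = 0.00509), RRP12 (-0.60, adjusted p = 0.0196), NIFK (-0.55, adjusted p = 0.0241), POLR1B (-0.52, adjusted p = 0.0267), UTP4 (-0.43, adjusted p = 0.0433) and NOP58 (-0.43, adjusted p = 0.0488). Those called as falling in AsiSI and not called in Flp-In were NOC3L (-0.58, adjusted p = 0.0116), NOP56 (-0.74, adjusted p = 0.0161), DKC1 (-0.59, adjusted p = 0.0186), UTP20 (-0.51, adjusted p = 0.0191), POLR1C (-0.48, adjusted p = 0.0304), HEATR1 (-0.39, adjusted p = 0.0391) and PPAN (-0.79, adjusted p = 0.0426). WDR43 and NOC3L are the 2 of these that were called in 7 or more of the 8 removals of 1 library.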

How the results depend on the processing

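No call changed direction under any setting (0 reversed), but values near 0 did: genes below 0 numbered 15 in Flp-In, and 9 to 19 over the settings, and 27 in AsiSI, and 24 to 30 over the settings. Some genes are overlapped by a row that holds at least 0.5 times their counts, which does not measure the reads shared. Without these genes, 9 rises in Flp-In (36%, against 16 and 40%) were called. In AsiSI 3 rises and 13 falls were called (12% and 52%, against 5 and 20, or 12.5% and 50%). Under siMePCE 2 genes were higher in AsiSI (8%, against 4 and 10%). A limit of 0.1, chosen after seeing the data, left 18 genes. Of these, 7 rose (38.9%) and 3 fell (16.7%) in Flp-In, and 3 rose (16.7%) and 8 fell (44.4%) in AsiSI. There were 6 lower differences (33.3%). In AsiSI 6 were higher (33.3%) and 3 lower (16.7%) under siNC, and 2 higher (11.1%) and 10 lower (55.6%) under siMePCE. Both settings count fewer genes. A filter of a mean of at least 1 CPM gave 11 rises in AsiSI. Over all rows and in either direction it called 14929 of 26438 there, against 16496 of 43321 in the main fit. DESeq2 called 24 lower differences, against 13, and 2635 differences over all rows in either direction, against 1808. The causes of these changes were not tested.

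The labels do not say that replicate numbers mark a shared culture, and deviations of libraries with the same number correlated by 0.0427 to 0.155. A fit with the replicate block called 23 lower differences, and 2912 differences over all rows in either direction, against 1808 without the block.

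Leaving out 1 library gave 14 to 17 rises and 7 to 7 falls in Flp-In, 2 to 5 rises and 19 to 20 falls in AsiSI, 1 to 15 lower and 0 to 0 higher differences, 7 to 10 higher and 3 to 6 lower genes in AsiSI under siNC, and 1 to 5 higher and 13 to 23 lower under siMePCE. The lone library left in a group is then assumed to vary like those of the other groups. Over all rows, too, each removal gave fewer calls of the difference than the fit of all 8 libraries. The calls held under every setting for 21 of 23 in Flp-In, 19 of 25 in AsiSI and 1 of 13 in the difference. With 2 libraries a group, the SE of a difference of effects ranged from 0.102 to 0.255 over the 40 factors.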
